A study of Homo sapiens with 4 samples.

Results

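Ribosome biogenesis and RNA polymerase I genes are the subject here, a set of 44 genes that build the ribosome in the nucleolus. A gene belonged to the set where its symbol in the deposited gene table equalled a listed name, and all 44 were found among the 16834 genes of the table. MIA PaCa-2 cells, an established line of human pancreatic ductal adenocarcinoma (PDAC), served as control or received, for 12 h, either 1 µM NBT (neobractatin, a natural compound), or 5 µM trametinib, which inhibits the kinase MEK in the MAPK pathway, or the combination of the 2. The labels give the genotype of every sample as WT and list a different MIA PaCa number in the cell line field of each library, whereas all titles name MIA PaCa-2. RNA of each condition was sequenced as 1 library, so no value below has a replicate check and no p-value is given. How much cultures of the same condition vary was not measured and is part of every difference.

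Ribosome production begins with RNA polymerase I, which transcribes the ribosomal DNA repeats into a long precursor RNA. Small nucleolar RNPs (snoRNPs) then guide chemical modification of this precursor, box C/D particles for ribose methylation and box H/ACA particles for pseudouridylation, while assembly factors fold and cut it into the RNAs of the small and the large subunit. The pathway is a main consumer of energy in growing cells, is controlled by growth factor signalling and by the transcription factor MYC, and is highly active in many tumours.

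The summed estimated reads ranged from 18776212 for the control to 19614763 for the combination. Every member was well covered, with 376 to 41961 reads in each library. Levels are given as CPM, estimated reads scaled to the library sum, in the order control, NBT, trametinib and combination, and differences as log2 ratios with a 95% Clopper-Pearson interval of the ratio of counts. These intervals reached between 0.02 and 0.20 to either side on the log2 scale and cover counting error only, not variation between cultures or PCR duplicates. The epithelial markers KRT8 and KRT18 were the most abundant of the markers examined, KRT8 at 3799, 3151, 2216 and 1493 TPM (a unit that also corrects for gene length) in that order of libraries, and KRT18 at 3142, 2694, 1048 and 995 TPM. Both were lowest in the libraries with trametinib, and their part in the results was not tested. EPCAM stayed between 209 and 242 TPM, and the markers of leukocytes (PTPRC), fibroblasts (COL1A1), endothelium (PECAM1) and acinar cells (CPA1) did not exceed 1.69 TPM in any library. All 14 output genes of the MAPK pathway that were examined were lower by at least 1 log2 unit in the trametinib library, for instance DUSP6, a phosphatase of ERK, with 329, 521, 14 and 9 estimated reads, CCND1 (cyclin D1) with 8472, 4693, 1315 and 323, and ETV5, an ETS factor, with 367, 777, 16 and 23.

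Members were abundant messages. Per length, their level in the control library ran from 10.1 TPM for WDR12 to 2969 TPM for NPM1, with a median of 97.8 TPM against 17.5 TPM over all measured genes, and 42 of the 44 lay above that median. The next highest levels after NPM1 were 954 TPM for NHP2, 415 TPM for FBL and 404 TPM for NCL. Together the members took 0.951%, 0.890%, 0.731% and 0.738% of all estimated reads in the 4 libraries. The share was thus lower in each treated library than in the control, and lower in the trametinib and combination libraries than in the NBT library, with binomial intervals that did not touch (0.727% to 0.735% with trametinib, 0.886% to 0.894% with NBT). Without NPM1, which alone supplied the largest number of reads, the shares were 0.735%, 0.674%, 0.537% and 0.566%. In bulk RNA, fewer cells with a high level and less RNA per cell cannot be told apart, and a change in the total RNA of a cell is not seen in shares.

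With trametinib alone nearly the whole set was lower by a similar, moderate amount. Of the 44 members, 43 were lower than in the control library, against 41.9% of all genes, and 22 were lower by at least 0.5 log2 units, a size reached downward by 9.05% of the 13509 genes with at least 10 reads in a library. Among the 7758 genes at least as abundant as the least abundant member, 543 were. The median log2 ratio of the members was -0.50, with the middle of the set between -0.56 and -0.39, against 0.08 over all genes. NHP2 was the exception, with a log2 ratio of 0.03 that counting error could give, and it too lay below the control when the libraries were scaled by trimmed mean (TMM) or median-of-ratios factors. No member was lower by 1 log2 unit or more at the library-sum scale, the limit in the methods of the study, which 3.07% of all genes passed downward. The difference was therefore broad over the set and moderate in size.

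With NBT alone most members stayed near the control. By any amount 36 of them were lower, against 50.4% of all genes. By at least 0.5 only UTP20 and PPAN were, against a background of 8.82% (4.22% among genes as abundant as the least abundant member). None was higher by that size, against 9.76% (4.82%). The median of the members was -0.10 and that of all genes was 0.00 to 2 decimals.

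With both drugs, 42 members were lower than in the control (background 46.9%), 12 by at least 0.5 (background 14.9%, or 12.9% among genes as abundant) and 2, UTP20 and IMP3, by at least 1 (background 5.16%). The median was -0.34, less far from the control than with trametinib alone. The 3 comparisons with the control share that library, so a chance deviation of it would enter all of them.

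**Figure D1:**
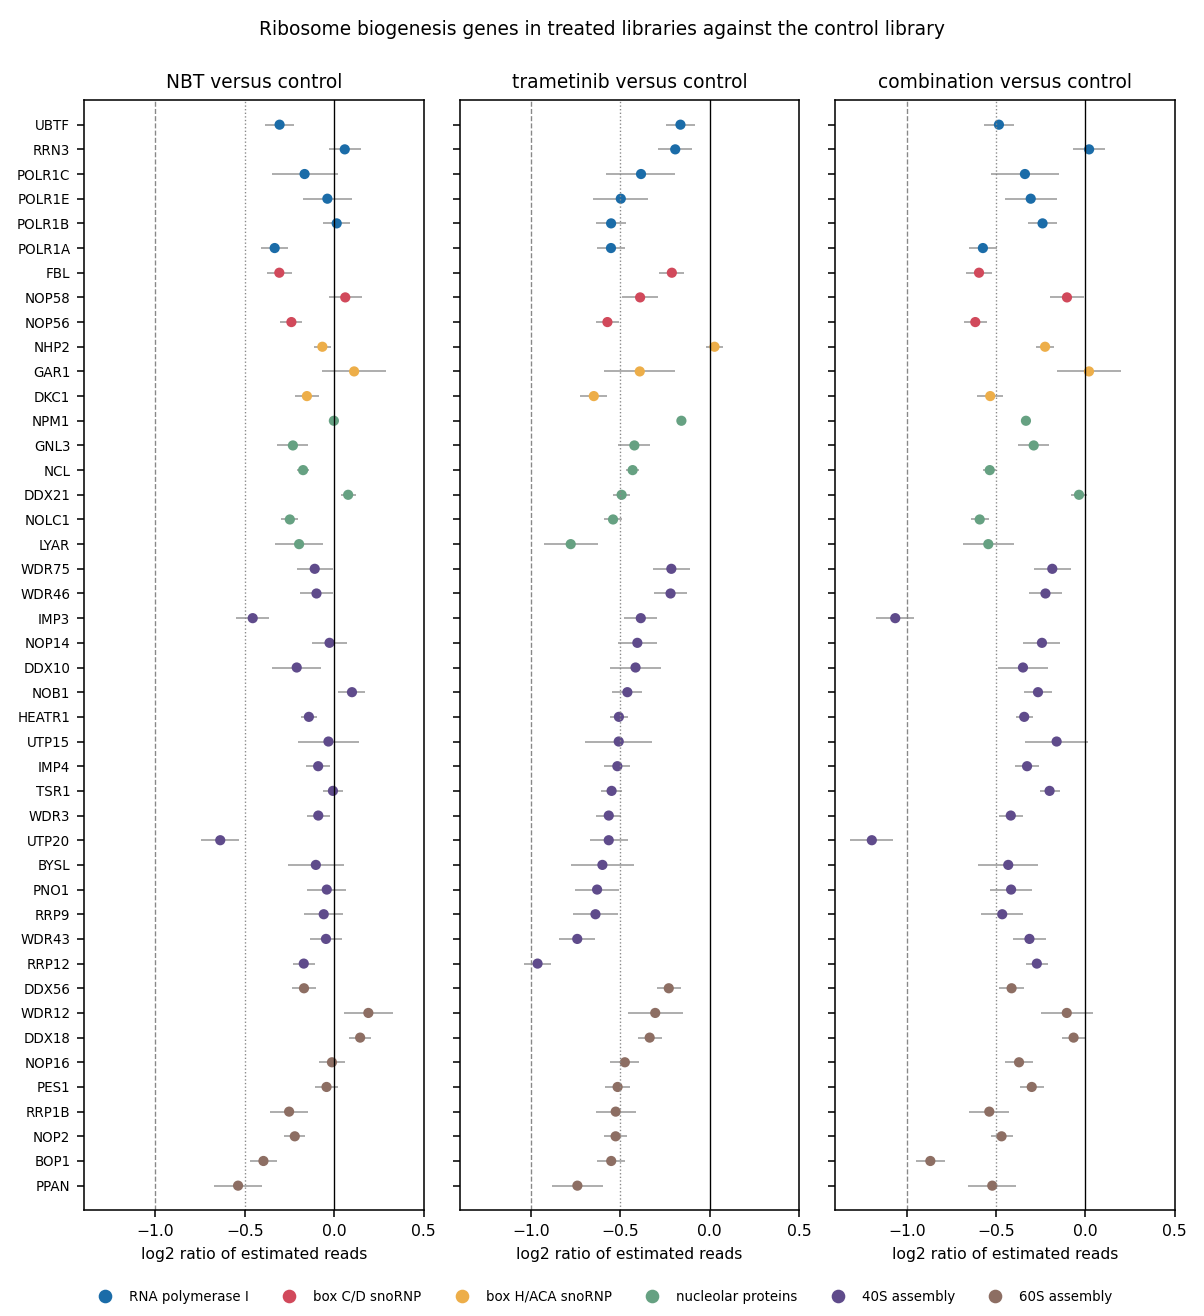
Log2 ratio of estimated reads of each of the 44 genes (rows, coloured by role; 40S marks the small and 60S the large subunit) in the NBT, trametinib and combination libraries against the control library, with 95% counting intervals as bars and lines at -0.5 and -1. With trametinib 43 of the 44 points lie left of 0 in a narrow band around a median of -0.50, while with NBT most sit near 0 and in the combination UTP20 and IMP3 stand apart at the left.

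Among the 6 RNA polymerase I genes of the set, the catalytic subunits differed most from the control with trametinib. POLR1A, which encodes the largest subunit, had 164, 130.1, 112 and 110.1 CPM. It was lower in every treated library, by a log2 ratio of -0.33 with NBT (-0.41 to -0.26), -0.55 with trametinib (-0.63 to -0.47) and -0.57 with both (-0.65 to -0.49), and the trametinib and combination libraries did not differ beyond counting error. POLR1B, the second-largest subunit, which forms the active centre with POLR1A, had 143, 145, 97.6 and 121 CPM. Its level with NBT matched the control within counting error, and the combination stood between trametinib (log2 ratio to control -0.55) and control, 0.31 above trametinib alone. The leading POLR1B transcript was assigned 56.7%, 51.5%, 57.9% and 29.0% of the reads, so the split between its 9 transcripts was different in the combination. POLR1C, a subunit shared with RNA polymerase III, had 26.9, 24.0, 20.6 and 21.3 CPM, with a log2 ratio of -0.38 (-0.58 to -0.19) for trametinib and -0.34 (-0.53 to -0.15) for the combination. POLR1E, a subunit specific to the enzyme, lay at -0.50 with trametinib and -0.31 with both.

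UBTF and RRN3, the initiation factors in the set, lay nearer the control with trametinib than the subunits did. UBTF, the factor that coats active ribosomal DNA, had 142, 115, 127 and 102 CPM. It was therefore lower with NBT, -0.31 (-0.39 to -0.22), than with trametinib, -0.16 (-0.24 to -0.08), and lowest with both, -0.48 (-0.57 to -0.40), close to the sum of the single values. RRN3, which joins the polymerase to the promoter and is a known target of ERK phosphorylation, was at -0.19 with trametinib and at 0.02 (-0.07 to 0.11) with both drugs. The RRN3 reads were whole numbers in the table, but the gene has near-identical pseudogene copies, and its value is uncertain for that reason.

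The core proteins of box C/D snoRNPs differed from each other. NOP56, a scaffold of the particle, had 247, 209.6, 166 and 161 CPM, a log2 ratio of -0.57 (-0.64 to -0.51) for trametinib and -0.62 (-0.68 to -0.55) for the combination. NOP58, its partner scaffold, had 99.0, 103, 75.5 and 92.1 CPM, so the combination was at -0.10 against the control and 0.29 (0.19 to 0.39) above trametinib. FBL (fibrillarin), the methyltransferase itself, had 191, 154, 165 and 126 CPM. FBL was at -0.31 with NBT and -0.21 with trametinib, and the combination stood at -0.60 (-0.67 to -0.52), the lowest of its 4 libraries.

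Of the box H/ACA proteins, DKC1 (dyskerin), the pseudouridine synthase, had 195, 175, 124 and 134 CPM. It was far lower with trametinib, -0.65 (-0.72 to -0.57), than with NBT, -0.15, and the combination was at -0.53 (-0.61 to -0.46). GAR1, which helps the particle release its substrate, had 26.0, 28.1, 19.8 and 26.4 CPM. The trametinib library alone stood low, at -0.39 (-0.59 to -0.20), and the combination was 0.41 (0.22 to 0.61) above it. The authors' transcript estimates assigned 100% of the GAR1 reads to a single RefSeq transcript in the control and combination libraries, 85.1% with trametinib and 30.9% with NBT, so the split between its 2 transcripts differed widely between libraries. NHP2, the RNA-binding core subunit, had 357, 341, 364 and 306 CPM and was lowest in the combination, which lay below each other library beyond counting error, at -0.23 against control and -0.25 (-0.30 to -0.20) against trametinib.

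Abundant nucleolar proteins followed the same direction. NCL (nucleolin), which binds nascent precursor RNA, had 804, 713, 596 and 555 CPM, lowest in the combination library. Its log2 ratio was -0.17 with NBT, -0.43 (-0.47 to -0.40) with trametinib and -0.54 (-0.57 to -0.50) with both. NPM1 (nucleophosmin), a histone chaperone and the most abundant member, had 2161, 2159, 1936 and 1716 CPM. The control and NBT libraries were level, trametinib was at -0.16 and the combination at -0.33 (-0.35 to -0.31), 0.17 below the sum of the single-drug values. NPM1 has many processed pseudogenes and its estimated counts were not whole numbers.

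NOLC1, a chaperone of snoRNPs that links nucleolus and Cajal bodies, had 397, 334, 273 and 263 CPM, or -0.54 (-0.59 to -0.49) with trametinib and -0.59 (-0.64 to -0.54) with both. GNL3 (nucleostemin), a GTPase of proliferating cells, was at -0.23 with NBT, -0.42 with trametinib and -0.29 with both. DDX21, an RNA helicase that acts in polymerase I transcription and precursor processing, had 465, 491, 330.2 and 453 CPM. Trametinib alone stood low for DDX21 at -0.49 (-0.54 to -0.45), and the combination was 0.46 (0.41 to 0.50) higher, within 0.04 of the control.

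LYAR, a zinc finger protein of the nucleolus that promotes ribosomal RNA synthesis, had 51.9, 45.3, 30.2 and 35.6 CPM. The authors' transcript estimates gave its leading transcript 686, 598, 573 and 624 reads and a second transcript 255, 282, 0 and 52. Much of the difference in the gene sum between control and trametinib thus fell on the second transcript. Only RRP12 lay further below the control with trametinib than LYAR, whose log2 ratio was -0.78 (-0.93 to -0.63). The combination was at -0.54 (-0.69 to -0.40). The 250 bases before a RefSeq start of LYAR (GRCh38.p14, chr4:4290022-4290271, minus strand) are shown because they hold the E-box motif that MYC is known to bind. The motif is in capitals, within a GC content of 70%.
LYAR: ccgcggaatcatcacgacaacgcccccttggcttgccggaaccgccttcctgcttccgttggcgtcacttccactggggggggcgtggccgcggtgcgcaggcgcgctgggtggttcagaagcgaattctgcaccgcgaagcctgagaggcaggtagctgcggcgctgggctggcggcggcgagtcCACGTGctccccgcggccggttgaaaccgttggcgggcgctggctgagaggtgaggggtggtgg

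The 17 factors of the small subunit held the largest differences. With trametinib all 17 were lower than in the control and 11 by at least 0.5, with a median of -0.52. In the combination the median was -0.33 and 2 members passed 0.5. Most were closer to the control in the combination than with trametinib alone, and UTP20 and IMP3 were further from it.

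RRP12, a HEAT-repeat protein needed to mature and export the small subunit, had 232, 207, 119 and 193 CPM. With trametinib it lay furthest below the control of all members, -0.96 (-1.04 to -0.89), and it had the largest difference between the combination and trametinib, 0.69 (0.62 to 0.77). The combination was 0.27 below the control, and 0.86 (0.76 to 0.96) above the sum of the single-drug log2 ratios. RRP12 was the only member higher by at least 0.5 in the combination than with trametinib, against a background of 12.5% (9.49% among genes as abundant).

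WDR43, a component of the early processing complex (the small-subunit processome), had 112, 109, 67.2 and 90.5 CPM. It followed the pattern of RRP12 at smaller size, with -0.74 (-0.84 to -0.64) for trametinib and 0.43 (0.32 to 0.53) for the combination against trametinib. RRP9, a protein of the U3 snoRNP that starts precursor cleavage, had 72.0, 69.1, 46.2 and 52.1 CPM, at -0.64 (-0.76 to -0.52) with trametinib and -0.47 (-0.58 to -0.35) with both. The platform and scaffold proteins of the processome were alike: with trametinib HEATR1 was at -0.51, WDR3 at -0.57, UTP15 at -0.51, IMP4 at -0.52 and NOP14 at -0.41. For these 5 the combination was 0.15 to 0.35 higher than trametinib alone. WDR46 and WDR75 of the same complex were closer to the control, both at -0.22.

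Late factors of the small subunit behaved in the same way. PNO1 and NOB1, the RNA-binding partner and the endonuclease that make the final cut of the small-subunit RNA, were at -0.63 and -0.46 with trametinib and at -0.42 and -0.27 with both. BYSL (bystin) was at -0.60 and -0.43, and TSR1, a GTPase-like factor that blocks early translation, at -0.55 and -0.20. Outside these late factors, the helicase DDX10 was at -0.42 and -0.35. NOB1 was the one of these 17 factors above the control with NBT, at 0.10 (0.02 to 0.17).

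UTP20 went the other way. This large scaffold of the processome had 96.5, 62.0, 65.2 and 42.1 CPM. It was lower by a similar amount with each single drug, -0.64 (-0.74 to -0.53) with NBT and -0.57 (-0.67 to -0.46) with trametinib, and the combination was at -1.20 (-1.32 to -1.08). From the sum of the single-drug log2 ratios it departed by 0.01 (-0.16 to 0.17). UTP20 was the only member lower by at least 0.5 with each drug in both pairs of libraries, with and without the other drug. Its 250 upstream bases (GRCh38.p14, chr12:101279855-101280104, plus strand) are shown because it had the lowest combination value of the set. They hold an E-box just before the start, in capitals, have a GC content of 47.6%, and also contain the TATA box motif on the opposite strand, which no other member had in its windows.
UTP20: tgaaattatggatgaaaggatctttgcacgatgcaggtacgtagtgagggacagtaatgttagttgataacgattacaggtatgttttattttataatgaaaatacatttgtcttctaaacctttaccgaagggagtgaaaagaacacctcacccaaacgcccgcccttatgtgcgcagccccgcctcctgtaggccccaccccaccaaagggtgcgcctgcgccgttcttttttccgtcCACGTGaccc

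IMP3, which guides the U3 RNA onto the precursor together with IMP4, had 119, 86.6, 90.9 and 56.8 CPM. The single drugs gave -0.46 (-0.55 to -0.36) and -0.39 (-0.48 to -0.29), and both drugs -1.06 (-1.17 to -0.96), which was 0.22 below their sum (a departure of -0.22, -0.36 to -0.08). IMP4, its partner, had 198, 186, 138 and 158 CPM and departed from the sum in the other direction, by 0.28. The upstream bases of IMP3 (GRCh38.p14, chr15:75640225-75640474, minus strand, GC content 60.8%) are shown beside those of UTP20, since both were past 1 in the combination, and hold none of the motifs that were searched.
IMP3: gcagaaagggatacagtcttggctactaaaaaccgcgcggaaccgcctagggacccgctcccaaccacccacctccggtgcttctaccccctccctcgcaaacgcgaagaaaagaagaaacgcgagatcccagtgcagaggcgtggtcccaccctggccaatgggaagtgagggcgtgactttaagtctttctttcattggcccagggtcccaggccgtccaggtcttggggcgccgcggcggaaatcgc

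Among the 9 factors of the large subunit, 5 were lower by at least 0.5 with trametinib and the median was -0.52. BOP1, PES1 and WDR12 form one complex that processes the precursor, yet differed in level and response. BOP1 had 180.4, 137, 123 and 98.9 CPM, in that order from control to combination, with log2 ratios of -0.40 (-0.47 to -0.32), -0.55 (-0.63 to -0.48) and -0.87 (-0.95 to -0.79). PES1 was at -0.04, -0.52 and -0.30 in the same order of comparisons, and WDR12 at 0.19 (0.05 to 0.33), -0.31 and -0.10. The combination was therefore lower than trametinib alone for BOP1, by -0.32, and higher for its partners, by 0.22 for PES1 and 0.20 for WDR12.

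RRP1B, a nucleolar scaffold, had 84.7, 71.1, 58.8 and 58.3 CPM, with -0.53 (-0.64 to -0.42) for trametinib and -0.54 (-0.65 to -0.43) for both. NOP2, an RNA methyltransferase, was at -0.53 with trametinib and NOP16 at -0.48. The helicases DDX18 and DDX56 were at -0.34 and -0.23, and DDX18 was above the control with NBT, at 0.15 (0.08 to 0.21).

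PPAN, an early assembly factor, had 57.5, 39.6, 34.4 and 40.1 CPM, or -0.54 (-0.67 to -0.40) with NBT, -0.74 (-0.88 to -0.60) with trametinib and -0.52 (-0.66 to -0.39) with both. Its sequence is also part of the read-through gene PPAN-P2RY11, and the division of reads between them is an estimate. Summed over both genes, the level was 136, 120.2, 89.3 and 101 CPM and the log2 ratios were -0.17, -0.60 and -0.43. The departure from additivity was 0.76 for PPAN and 0.35 for the sum, so the NBT value and part of the departure rest on that division.

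The drugs of the combination were given together, and comparing it with NBT alone gave a second measure of the trametinib effect that shares no library with the first. In the combination 43 of 44 members were lower than in the NBT library, against 46.3% of all genes, with PPAN as the exception at 0.02 (-0.13 to 0.16). By at least 0.5, UTP20 and IMP3 were lower (also BOP1 with TMM factors), against a background of 9.02% (5.40% among genes as abundant). The median of the members was -0.25 against 0.03 over all genes. In both pairs 42 members were lower with trametinib, against 28.8% of all genes, and 28 were lower by at least 0.2 in both, against 12.4%. For 38 of the 44 the log2 ratio was higher beside NBT than without it, against 45.7% of all genes. By construction this is the same count as that of the upward departures from additivity given below. The direction of the trametinib effect was thus the same in both pairs while its size was not, and the sizes of single members in the 2 pairs followed each other only loosely (Pearson's r 0.19 and Spearman's rho 0.35 across the 44 genes, which are not independent, against an r of 0.57 over all genes).

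The 2 comparisons that measure NBT, which likewise share no library, differed in direction, a difference not tested against variation between cultures. Without trametinib 36 members were lower with NBT, whereas beside trametinib 30 were higher (34 with TMM factors, background 46.4%), with a median of 0.15 against -0.04 over all genes. For 22 members NBT gave a lower level alone and a higher one beside trametinib, against 12.1% of all genes, and for none the reverse. Higher in both pairs were 8 members, against 34.3%, and lower in both 14, against 38.2%. Of the latter, those beyond counting error in both were UBTF, FBL, NHP2, NCL, UTP20, IMP3, BOP1 and DDX56, against 18.8% of all genes. Lower by at least 0.5 beside trametinib were UTP20 and IMP3, against a background of 16.4% (10.7% among genes as abundant). In that comparison the intervals of 25 members lay above 0, against 27.2% of all genes (35% of those at least as abundant as the least abundant member), those of 9 below 0, against 32.4% (39.5%), and those of 10 around 0.

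**Figure D2:**
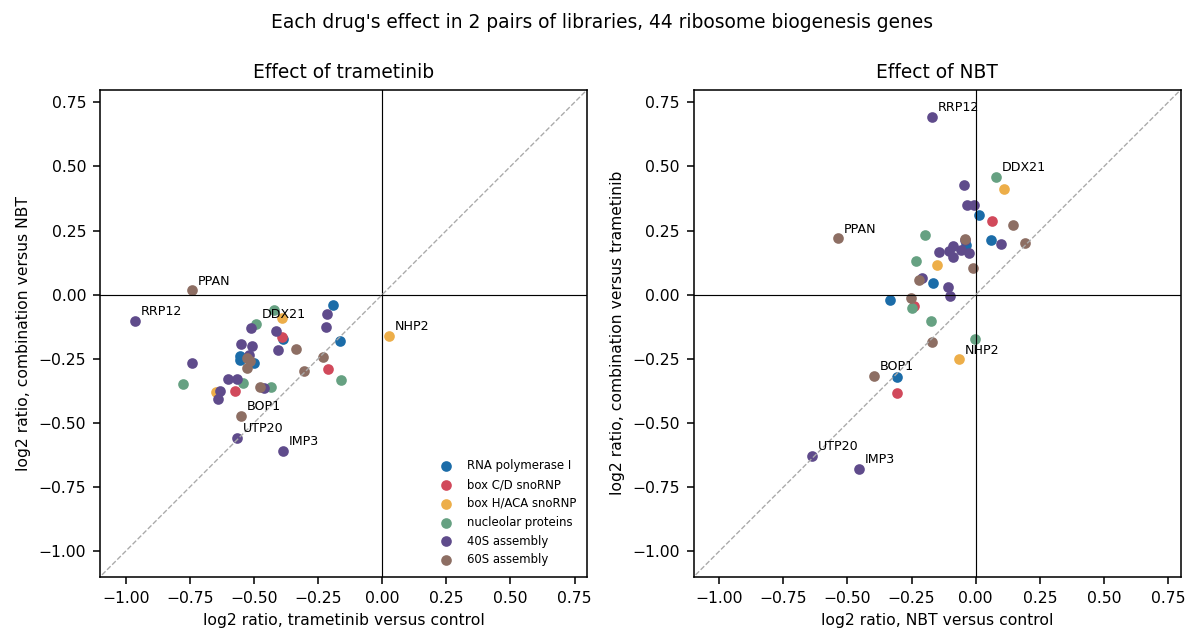
Log2 ratio of each of the 44 genes for trametinib (left, against control on the x axis and against NBT on the y axis) and for NBT (right, against control and against trametinib); points are genes coloured by role and the dashed line marks equal values. In the left panel 42 points lie below and left of 0 and most above the dashed line, and in the right panel RRP12 lies highest and UTP20 and IMP3 lowest.

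The combination departed upward from the sum of the single-drug log2 ratios for 38 members (background 45.7%), with a median departure of 0.23 against -0.03 over all genes. Intervals lay above 0 for 31, against 16.5% of all genes (24.0% of those as abundant), below 0 for 3 (NHP2, NPM1 and IMP3), against 21.2% (26.8%), and around 0 for 10. At the library-sum scale RRP12 and PPAN passed 0.5, against a background of 7.78% (2.71% of those as abundant). WDR43 joined them with TMM factors, median-of-ratios factors and TPM, so most departures were small. The trametinib library was the lowest of the 4 for 30 members, against 21.7% of all genes, and the combination library for 14, against 27.9%. The control library was the highest for 35, against 21.7%, the NBT library for 8 and the trametinib library for 1, NHP2. The trametinib library enters its comparisons with the control and with the combination, the departure and this order. A chance deviation of it would enter all of these.

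Other genes of ribosome production, from lists that hold none of the 44, had medians closer to the control on the same side. The members and lists were chosen with earlier results of these data known, and the part of that choice in this contrast was not tested. With trametinib, 42 of 44 further small-subunit factors were lower than in the control, 7 of them by at least 0.5, with a median of -0.29. Of 52 further large-subunit factors 47 were lower and 13 by at least 0.5, with a median of -0.37. Assembly proteins of snoRNPs had a median of -0.24 with 3 of 13 past 0.5, the other subunits and factors of RNA polymerase I -0.09 with 2 of 14 (POLR1G and TAF1A), subunits and factors of RNA polymerase III -0.10 with 4 of 23, and the exosome, which trims precursor RNA, -0.15 with 1 of 16. The medians thus ran from the assembly factors over snoRNP proteins and the exosome to the polymerases, beside a background of 9.05% past 0.5. Of the 14 polymerase I genes, 5 are subunits shared with RNA polymerase II (POLR2E, POLR2F, POLR2H, POLR2K and POLR2L), which lay between -0.02 and 0.21. The other 9 ran from -0.99 for POLR1G to 0.09 for POLR1D. TAF1A, a subunit of the initiation factor SL1 named here after its value was seen, had 743, 833, 395 and 682 reads and was at -0.92 with trametinib, further from the control than the catalytic subunits. In the combination against control, 8 small-subunit factors were lower and 1 higher by at least 0.5, 12 large-subunit factors lower and 3 higher, 4 polymerase III genes lower and 2 higher, and, lower only, 4 exosome, 2 snoRNP and 2 polymerase I genes, beside a background of 14.9% lower and 18.8% higher. For the small-subunit, snoRNP and both polymerase lists the shares lower were thus close to the background. With NBT alone none of the 6 lists had more than 2 genes past 0.5 in either direction.

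EXOSC4 lay further below the control with trametinib (-2.02 to -1.65) than any member. POLR1G (-1.16 to -0.82) matched RRP12, the lowest member there (-1.04 to -0.89), within counting error. In the combination POLR1G had a lower value than any member, but its interval (-1.60 to -1.22) overlapped that of UTP20 (-1.32 to -1.08). EXOSC4, an exosome subunit, had 1097, 1052, 310 and 527 estimated reads, a log2 ratio of -1.83 for trametinib and -1.12 for the combination. POLR1G, a polymerase I subunit outside the catalytic core, had 815, 618, 414 and 321 reads and was at -0.99 with trametinib and -1.41 with both. POLR1F, a subunit of the stalk of the enzyme, was at -0.47 with both and the shared subunit POLR2L at -0.72, although POLR2L was at 0.21 with trametinib.

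CCDC86, a nucleolar factor, had 2479, 1789, 1449 and 1219 reads, at -1.09 with both. Also of the large-subunit list, MDN1 (midasin), an ATPase that strips assembly factors, was at -0.96 and URB2 at -0.85. The exosome genes MPHOSPH6 and EXOSC3 were at -0.56 and -0.55. TCOF1 (treacle), which tethers polymerase I factors and snoRNPs, had 9017, 7717, 5687 and 5568 reads and was at -0.76 with both. NOP10, a core protein of box H/ACA particles, was at -0.51 and NUFIP1, a box C/D assembly factor, at -0.49, and DHX37, NOL6 and TBL3 of the small-subunit list were at -0.79, -0.77 and -0.73. BRF2, an initiation factor of RNA polymerase III, went against its list with 181, 351, 162 and 522 reads, 1.46 above the control in the combination, as did POLR3C at 0.84, while POLR3K was at -0.77.

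The ribosomal protein genes examined lay on the other side of the control. They were listed as proteins that leave or guard the assembly path and are not the whole class. All 14 that were examined were above the control with each drug and with both, with medians of 0.19, 0.15 and 0.19 for NBT, trametinib and the combination, except that 1 lay just below it with trametinib under TMM factors. With trametinib 58.1% of all genes were above the control, with a median of 0.08, and the median of the ribosomal protein genes was 0.07 with TMM factors and 0.08 with median-of-ratios factors. RPL3, RPLP0 and RPS6 were highest in the combination, at 0.41, 0.28 and 0.26. None of the 14 passed 0.5 in any comparison. Transcripts of snoRNA host genes were not analysed here.

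**Figure D3:**
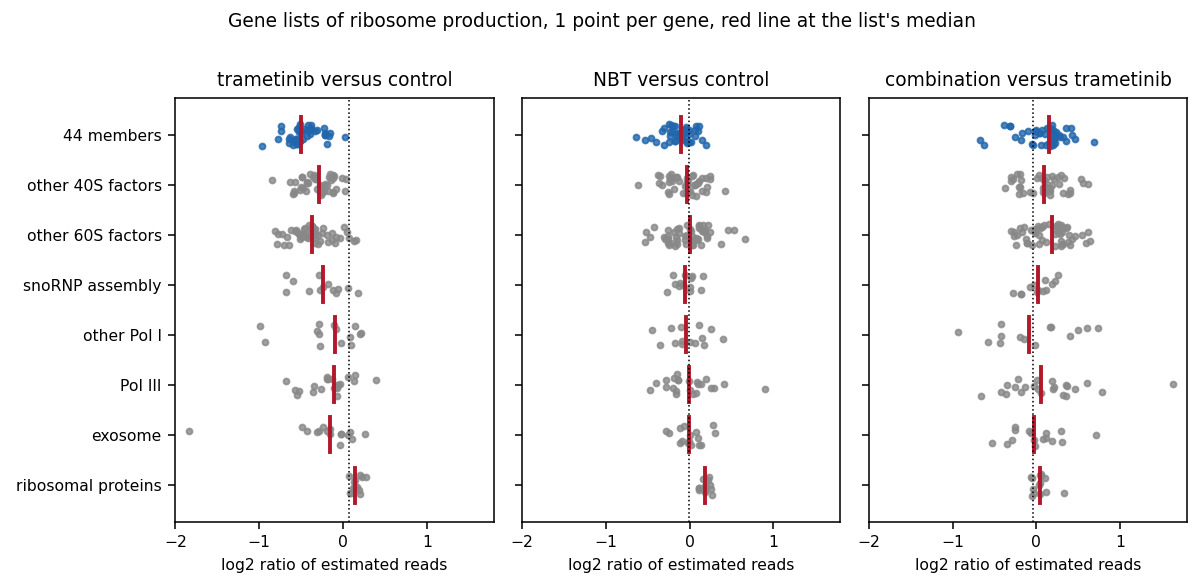
Log2 ratio of estimated reads of single genes (points) by list for trametinib against control, NBT against control and the combination against trametinib; red lines mark list medians and the dotted line the median of all genes. With trametinib the median lies at -0.50 for the 44 genes and at -0.37 and -0.29 for the other large- and small-subunit factors. For the ribosomal protein genes examined it lies at 0.15.

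MYC, a transcription factor known to drive these genes, was also lowest with trametinib. It had 913, 1297, 170 and 586 estimated reads. Its log2 ratio was 0.46 (0.33 to 0.58) with NBT, -2.43 (-2.68 to -2.20) with trametinib and -0.70 (-0.85 to -0.55) with both, so the combination was 1.73 above trametinib alone. The order of the libraries for MYC was NBT, control, combination and trametinib from high to low. Among the members only POLR1B, NOP58, DDX21, NOB1, WDR12 and DDX18 had this order. For 35 of the 44 members the control library was the highest, against 21.7% of all genes. For 14 members, among them UTP20, IMP3 and BOP1, the combination library was the lowest, against 27.9% of all genes. In this these members also differed from MYC. Of the 11 genes of the MYC network that were measured, 5 were lower and 6 higher than the control with trametinib (6 and 5 with TMM factors). MXD1, a partner of MAX that opposes MYC, had 433, 1314, 318 and 1631 reads and was high in both libraries with NBT. MXD4 and MXI1 of the same family were at 0.98 and 0.91 with both drugs. The part of MYC and MXD1 in the differences of the members was not tested.

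**Figure D4:**
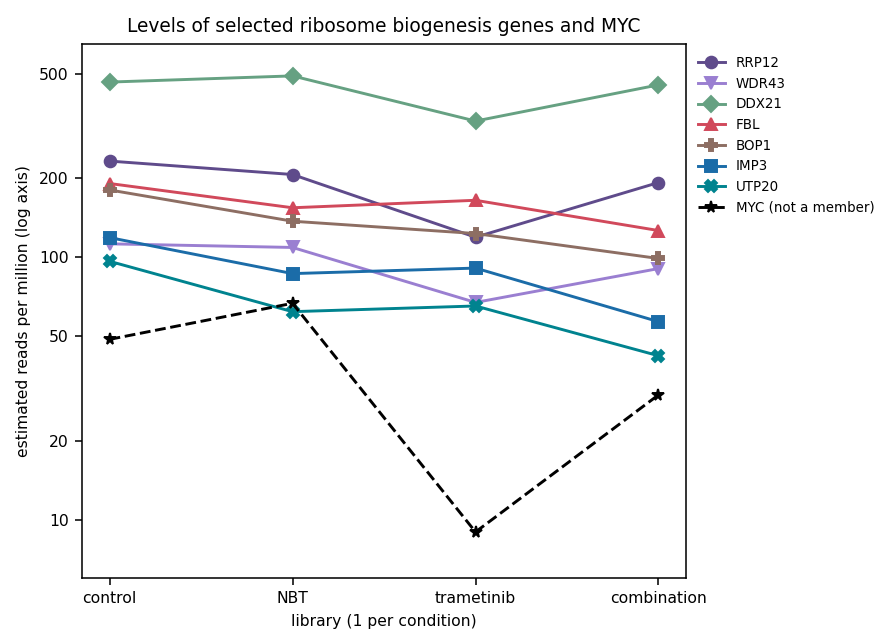
Estimated reads scaled to the library sum (CPM, log axis) of 7 of the 44 genes and of MYC in the 4 libraries, 1 library per condition; lines join the values of a gene and carry no error. RRP12, WDR43, DDX21 and MYC are lowest with trametinib and higher in the combination, whereas FBL, BOP1, IMP3 and UTP20 are lowest in the combination.

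MYC binds with MAX to the E-box, CACGTG, and this sequence was common at the starts of the members. RefSeq start windows of 300 bases (250 before and 50 after the start, GRCh38.p14) were matched for 37 of the 44 genes. Some genes have more than 1 start, so these 37 had 47 windows, and a gene counted where any of its windows held the motif. Per window, the E-box was present in 31.9% of those of members and in 7.26% of all windows. An E-box was present for 15 of the 37 members (40.5%), for 8.77% of all 27305 genes with a window, for 12.3% of those measured and for 13.7% of measured genes at least as abundant as the least abundant member. CACGTG reads the same on both strands. Of the 16 E-boxes, 14 began within 50 bases of the start and 11 lay after it. Positions of E-boxes in other genes were not counted, so whether this closeness is particular to the members was not tested. The ETS motif CCGGAAG, on either strand, was present for 35.1% of members, against 12.2% of all genes and 26.7% of the abundant ones. The palindromic motif of NRF1 was present for 3 members (8.11%), against 1.52% and 3.09% in the same order. TATAAA was present for 1 member (2.70%), against 14.0% and 7.35%. No motif searched contains another.

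The E-boxes are printed with up to 10 bases on each side, 5′ to 3′ along the gene and with the motif in capitals, to show each motif in its place. Coordinates are those of the printed bases in GRCh38.p14.
WDR43 (chr2:28894660-28894685, plus strand): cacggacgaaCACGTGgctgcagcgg
PNO1 (chr2:68157887-68157912, plus strand): tgcagctgcgCACGTGtttcagccgg
IMP4 (chr2:130342684-130342709, plus strand): ggtcctaagtCACGTGtgacattctg
IMP4 (chr2:130342902-130342927, plus strand): ctcccggaccCACGTGgaagcggcac
RRP9 (chr3:51941894-51941919, minus strand): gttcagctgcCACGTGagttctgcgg
GNL3 (chr3:52686028-52686053, plus strand): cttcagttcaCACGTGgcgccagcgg
NOP14 (chr4:2963376-2963401, minus strand): cgcggcccggCACGTGtcttagggta
LYAR (chr4:4290070-4290095, minus strand): gcggcgagtcCACGTGctccccgcgg
GAR1 (chr4:109815783-109815808, plus strand): gccagaggggCACGTGgcgccggtga
WDR46 (chr6:33289190-33289208, minus strand): aggagttttgCACGTGgat
BYSL (chr6:41921517-41921542, plus strand): cttcagtcccCACGTGcgatccttcc
DDX21 (chr10:68956606-68956631, plus strand): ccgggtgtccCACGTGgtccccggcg
NOP2 (chr12:6568242-6568266, minus strand): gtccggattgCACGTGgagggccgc
UTP20 (chr12:101280085-101280110, plus strand): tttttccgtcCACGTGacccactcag
FBL (chr19:39846358-39846383, minus strand): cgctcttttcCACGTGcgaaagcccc
PES1 (chr22:30591882-30591907, minus strand): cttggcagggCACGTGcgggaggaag

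With trametinib, the median log2 ratio was -0.52 for the 15 members with one, 9 of which (60%) were lower by at least 0.5, and -0.45 for the 22 with a window and none, of which 9 (40.9%) were. Over all measured genes the medians were 0.04 with an E-box and 0.08 without, and 10.2% and 8.08% were lower by at least 0.5. LYAR and WDR43, which lay far below the control (-0.78 and -0.74), and FBL and WDR46, which lay near it (-0.21 and -0.22), all held the motif, and IMP3, PPAN and DKC1 held none in the window. A match of letters is a description of these windows and was not tested as a binding site.

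**Figure D5:**
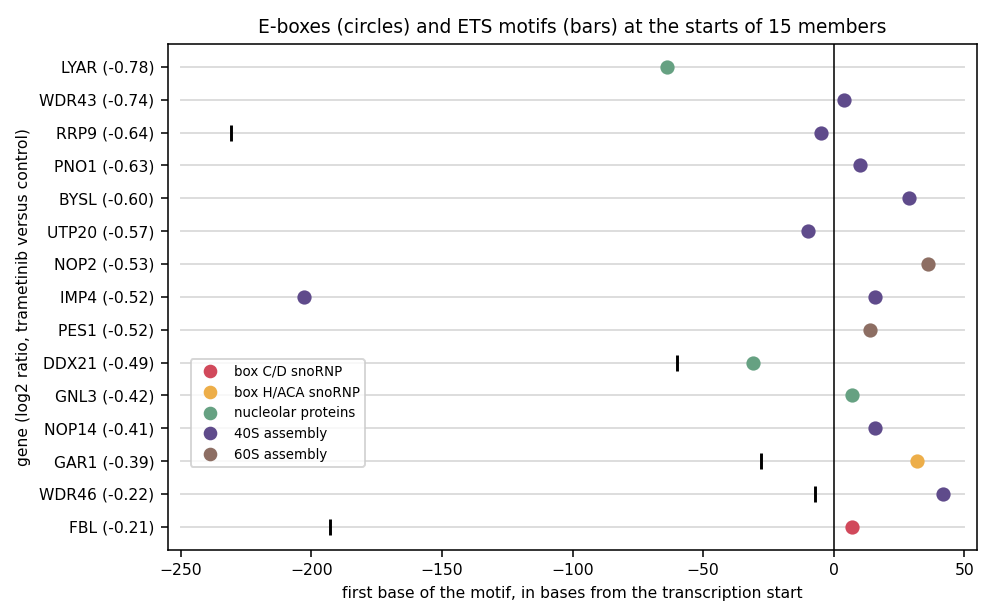
Position of E-boxes (circles, coloured by role) and ETS motifs (bars) of the 15 members with an E-box, in bases from the RefSeq start of the window that holds the motif. Genes are ordered from top to bottom by the log2 ratio of trametinib to control given in brackets. For DDX21 and GAR1 the ETS motif and the E-box lie in windows of different starts, so their spacing on the axis is not their distance in the genome. Most circles lie within 50 bases of the start at 0, for genes with log2 ratios from -0.78 to -0.21. Positions in other genes were not counted.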

How the data were processed

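RNA of MIA PaCa-2 cells in 4 conditions was sequenced on the BGISEQ-500 platform. For each gene and RefSeq transcript the authors deposited an estimated count, not normalized, and TPM and FPKM values, which they scaled to length and depth. The submitters' processing notes name hg38, Bowtie2 2.2.5 and RSEM 1.2.8. Whether counting used strand is not given in the sources used here, so reads of overlapping genes on opposite strands cannot be told apart. The labels also describe depletion of bacterial ribosomal RNA.

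Estimated counts were rounded and scaled to the library sum, and log2 ratios were computed with 0.5 reads added. A departure from additivity is the log2 ratio of the combination to control minus those of both drugs, with a Poisson interval. Sizes of 0.5 and 1 were counted over 13509 genes with at least 10 reads in a library. Alternatives were edgeR TMM and DESeq2 median-of-ratios factors, TPM and FPKM with a pseudocount of 0.1, 5 added reads, summed transcripts, no minimum, members with a mean of at least 1000 reads, and a binomial test beside the fold; the background of equally abundant genes, shares of all genes by interval and by library order, and the PPAN sum were added after seeing the data. Members described in full were the 3 per role with the largest log2 ratio of combination to control, and any past 1; of each further list, the 3 largest with at least 100 reads were named. RRP12, WDR43, DDX21, NPM1, POLR1B and IMP4 were described in full after their values were seen. The members and lists were chosen with earlier results of these data known. Ratios and intervals were tested on simulated data. Versions were Python 3.11.15 with numpy 2.4.6, pandas 2.3.3, scipy 1.17.1, statsmodels 0.14.6 and matplotlib 3.10.9, and edgeR 4.0.16 and DESeq2 1.42.0 under R 4.3.3.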

Additional observations from a re-analysis of the deposited data

Results flagged for a closer look

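For 8 members the NBT library lay below the control while the combination lay above trametinib, in each case beyond counting error, against 1.52% of all genes (2.32% of those at least as abundant as the least abundant member), so that NBT went with opposite directions without and with trametinib. The difference between these effects, on the log2 scale, was 0.86 for RRP12, 0.76 for PPAN (0.35 when summed with its read-through gene), 0.43 for LYAR, 0.36 for GNL3, 0.31 for HEATR1, 0.28 for IMP4, 0.27 for DKC1 and 0.24 for WDR3. With 1 library per condition this difference was not tested against the variation between cultures. MYC had the same sign of difference beside trametinib (1.73) but lay above the control with NBT alone (0.46), and its part in these values was not tested.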

How the results depend on the processing

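With other scalings of the same libraries, the number of members lower by at least 0.5 with trametinib, 22 at the library-sum scale, reached 27 with TMM factors, that of the combination against control went from 12 to at most 15, those of NBT against control and of the combination against NBT from 2 to at most 3, and that of departures past 0.5 from 2 to at most 3. The number of members lower by at least 1 with trametinib was 0 at the library-sum scale and 1, RRP12, with edgeR TMM factors and with DESeq2 median-of-ratios factors. The number higher by at least 0.5 in the combination against trametinib was 1 and became 2 with TMM factors, DDX21 joining RRP12. Medians over members stayed between -0.58 and -0.50 for trametinib against control, -0.17 and -0.10 for NBT, -0.38 and -0.34 for the combination, 0.12 and 0.20 for the combination against trametinib, -0.28 and -0.23 against NBT, and 0.20 and 0.29 for the departure from additivity. Of 1590 values of single members none reversed among those past 0.5, and 55 moved beyond their counting interval. Signs changed in some setting only for members within 0.06 of 0. The largest shift of the median of all genes was -0.07, with TMM factors for trametinib against control. No paired analysis was possible because each condition has 1 library, and for the same reason no library could be left out. The counting intervals give the precision that depth allows, and variation between cultures was not measured.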
